A study of Homo sapiens with 12 samples.

Results

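The comparison described here sets dBET6 against JQ1 in JQ1-resistant U87 cells, an established human glioblastoma cell line. Its members are 4 of the 12 libraries of the series, chosen by their labels: 2 libraries of resistant cells given 1000 nM dBET6 and 2 of resistant cells given 1000 nM JQ1, both for 24 h, measured by sequencing of polyA RNA. The same cells given the solvent DMSO for 24 h (2 libraries) and the parental U87 line given dBET6, JQ1 or DMSO at the same dose and time (2 libraries each) are used to set these values in place. The labels do not say how resistance was obtained, whether the resistant line is 1 clone, whether it was kept in JQ1 beforehand, or whether the libraries of a group came from separate cultures, so that the p-values cover the spread from library to library and may not cover that from culture to culture. Dose, time and line are matched, and 1 pair of compounds is compared.

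BET proteins, among them BRD2 and BRD3, read acetylated lysines on chromatin through paired bromodomains and help to recruit the elongation factor P-TEFb to RNA polymerase II. JQ1 fills the acetyl-lysine pocket of the bromodomains and displaces the proteins from chromatin. dBET6 carries a JQ1-derived ligand joined by a linker to a thalidomide-type ligand of cereblon. Cereblon picks the substrates of a cullin ubiquitin ligase, and a BET protein brought to it is ubiquitinated and destroyed. HEXIM1, which holds P-TEFb in an inactive complex with 7SK RNA, is a common marker of BET inhibition, on which its RNA rises. Protein levels were not analysed here.

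The dBET6 libraries held 24732177 and 27679190 estimated counts, against 33710124 and 35512170 in the JQ1 libraries. The RNA differed in make-up. Ribosomal protein mRNA took 11.9% and 12.5% of the paired counts with dBET6, against 6.59% and 7.21% with JQ1. Mitochondrially encoded mRNA took 3.94% and 3.73% with dBET6, against 2.70% and 2.35% with JQ1. The 50 most abundant genes took 31.0% and 30.4% with dBET6, against 18.0% and 18.2% with JQ1. MIR3648 and MIR3687, annotated in the ribosomal DNA region, took 0.918% and 0.737% with dBET6, against 0.0131% and 0.00986% with JQ1. Genes above 1 TPM numbered 11213 and 11180 with dBET6, against 14547 and 14188 with JQ1. The groups did not overlap in any of these shares, and an exact two-sided permutation test of 2 against 2 cannot go below 0.33, the value it gave for each. The part of RNA make-up in the gene results was not tested.

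Levels are given as CPM, counts scaled to library size with TMM factors, in replicate order 1 and 2. Differences are the log2 fold change of dBET6 over JQ1 ± SE from edgeR's quasi-likelihood test, with n = 2 libraries a group. Adjusted p is Benjamini-Hochberg over 19093 genes. The SE is the size of the fold change divided by the square root of the test's F. It is approximate, and for genes near 0 counts in a group it can understate the error. Fold changes of dBET6 over JQ1 in resistant cells that are printed without a p passed the threshold of 0.05. Genes said to rise or fall did so with dBET6 relative to JQ1, unless DMSO is named. All these differences are relative to the bulk of the genes, whose median was -0.03. With total counts as the scale the median gene moved to -0.90 and with the 13 mitochondrially encoded mRNAs to -1.50. Contrasts with DMSO were fitted on the TMM scale only, and their signs may not hold on another. In bulk RNA, fewer cells of a type and less RNA per cell cannot be told apart, and neither can total RNA per cell be read from these libraries.

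dBET6 and JQ1 left the resistant cells with widely different transcriptomes. Of the genes tested, 6767 (35.4%) were higher and 7401 (38.8%) lower with dBET6 than with JQ1 at an adjusted p under 0.05, together 74.2%. With total counts as the scale 26.2% of calls were higher, against 47.8% with TMM, and with mitochondrial mRNA as the scale 14.3%. Both dBET6 libraries lay above both JQ1 libraries in 41.9% of genes and below both in 44.3%. On the TMM scale the tail was longer upwards, with 803 genes (4.21%) at least 16-fold higher and 148 (0.775%) at least 16-fold lower. These are by the fitted value, which for genes at 0 in a group depends on the prior count. The tails were not counted on another scale. The dBET6 libraries were also smaller, which makes large falls of scarce genes harder to see. The part of scale and depth in this asymmetry was not tested. Against DMSO, dBET6 moved 75.2% of genes and JQ1 43.9% in the same cells. These contrasts share libraries and are therefore only set side by side.

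**Figure D1:**
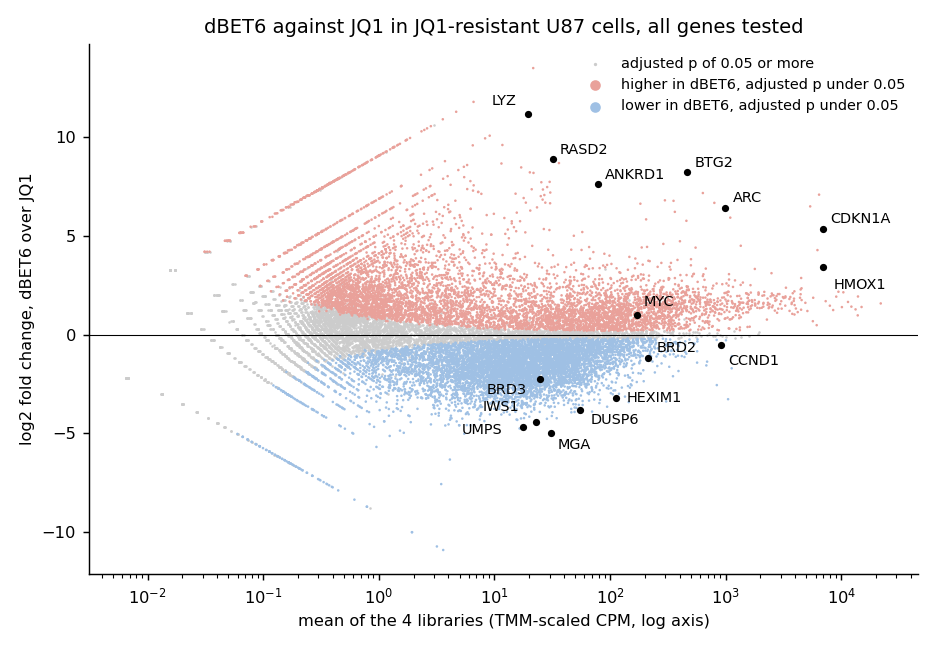
Each point is a gene of resistant U87 cells, with its mean level over the 4 libraries in CPM on a log axis and its log2 fold change of dBET6 over JQ1. Red and blue points passed an adjusted p of 0.05 as higher (6767) and lower (7401), and the slanted lines of points at the left are genes with 0 or a few counts in a group, whose fitted fold change is no bound.

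HEXIM1 (ENSG00000186834) separated the compounds. It had 21.1 and 22.6 CPM in the dBET6 libraries, against 207 and 201 CPM in the JQ1 libraries and 47.0 and 51.0 CPM in the DMSO libraries. JQ1 libraries stood highest, dBET6 libraries lowest, and no groups overlapped. The log2 fold change of dBET6 over JQ1 was -3.22 ± 0.11 (adjusted p = 1.70e-19), made of -1.16 ± 0.11 for dBET6 over DMSO and 2.06 ± 0.10 for JQ1 over DMSO.

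BRD2 (ENSG00000204256), a BET protein gene, had 131 and 129.9 CPM in the dBET6 libraries, against 292 and 296 CPM in the JQ1 libraries and 69.7 and 74.3 CPM in DMSO. On the TMM scale it was above DMSO with both compounds, which was not tested on another scale. It was lower with dBET6 than with JQ1 (-1.17 ± 0.08, adjusted p = 6.87e-13). BRD2 and BRD3 were rebuilt from 0.92 and 0.89 of their deposited levels. BRD3 (ENSG00000169925), its relative, had 8.52 and 8.72 CPM in the dBET6 libraries, against 41.2 and 41.5 CPM in the JQ1 libraries and 46.7 and 47.9 CPM in DMSO. Here the JQ1 libraries lay close to DMSO (log2 -0.19 ± 0.09) and the dBET6 libraries apart from both (-2.26 ± 0.11 against JQ1, adjusted p = 1.55e-16). SERPINI1 (ENSG00000163536), which encodes neuroserpin, had 2.2 and 2.55 CPM in the dBET6 libraries, against 1.7 and 1.73 CPM in the JQ1 libraries and 0.380 and 0.287 CPM in DMSO. Both compounds stood above DMSO on the TMM scale, and the difference between them did not pass the test (0.47 ± 0.23, adjusted p = 0.0687). It was 0.67 with median-of-ratios factors, which passed, -0.41 with total counts, which did not, and -1.01 on the mitochondrial scale, which passed.

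Across the list of BET, P-TEFb and elongation genes, 23 of 31 tested members fell and 3 rose (median -1.18), beside 38.8% and 35.4% of all genes. Of protein-coding genes 46.0% were lower and 34.6% higher, and of those in the middle of 5 bins by level 72.2% and 17.7%. A list whose share of lower members lies between 46.0% and 72.2% is not set apart by that count. Among such lists below are G1 (61.5%), E2F (66.0%), proteasome (60.0%), ribosome biogenesis (64.9%), Polycomb and SWI/SNF (63.9%) and ZNF (60.5%). Of protein-coding genes of at least 10 CPM, 65.3% were higher in the most abundant of 5 bins by level. A list with between 34.6% and 65.3% of its members higher is likewise not set apart by that count. The p53, AP-1 and cholesterol lists (66.7% each) and MHC class I (65.7%) lie close to 65.3%. MEPCE, which caps 7SK RNA, had 15.7 and 14.6 CPM in the dBET6 libraries, against 144 and 153 CPM in the JQ1 libraries (-3.30 ± 0.10). CDK12, a kinase of elongating polymerase II, had 12.5 and 14.6 CPM in the dBET6 libraries, against 134 and 131 CPM in the JQ1 libraries (-3.29 ± 0.10), and LEO1, a subunit of the PAF1 elongation complex, had 1.31 and 1.68 CPM in the dBET6 libraries, against 29.4 and 29.8 CPM in the JQ1 libraries (-4.30 ± 0.18). The members that fell include HEXIM1 and MEPCE, which hold P-TEFb inactive, beside factors that promote elongation. Mediator, the bridge between activators and polymerase II, showed 26 of 32 members lower and 4 higher (median -1.70). MED1, the subunit that nuclear receptors bind, had 9.96 and 8.47 CPM with dBET6, against 90.4 and 93.8 CPM with JQ1 (-3.32 ± 0.11), and MED10 had 12.8 and 14.8 CPM with dBET6, against 99.6 and 102 CPM with JQ1 (-2.86 ± 0.10).

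CRBN and most listed genes of the machinery that dBET6 engages were lower, as were most protein-coding genes of middle level. CRBN (ENSG00000113851), which encodes cereblon, had 4.26 and 4.42 CPM in the dBET6 libraries, against 28.8 and 27.8 CPM in the JQ1 libraries and 25.1 and 24.3 CPM in DMSO. The dBET6 libraries lay below the other groups, which were close to each other (-2.70 ± 0.14 against JQ1, adjusted p = 6.06e-16). Of the list of cereblon ligase and NEDD8 genes, 17 of 23 fell (73.9%) and 6 rose (median -1.06). That share is close to the 72.2% of protein-coding genes in the middle of 5 bins by level. UBA3, a subunit of the enzyme that activates NEDD8, had 4.47 and 4.99 CPM with dBET6, against 41.2 and 37.3 CPM with JQ1 (-3.05 ± 0.13), and CAND1, which exchanges the substrate receptors of cullin ligases, had 23.6 and 26.9 CPM with dBET6, against 153 and 149 CPM with JQ1 (-2.58 ± 0.11). Proteasome subunits fell in 18 of 30 cases and rose in 7 (median -0.49), a share below that 72.2%. PSMA4, of the core particle, had 6.11 and 8.35 CPM with dBET6, against 96.7 and 93.3 CPM with JQ1 (-3.71 ± 0.14), and PSMC6, an ATPase of the cap, had 1.37 and 2.55 CPM with dBET6, against 29 and 27.6 CPM with JQ1 (-3.83 ± 0.17).

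**Figure D2:**
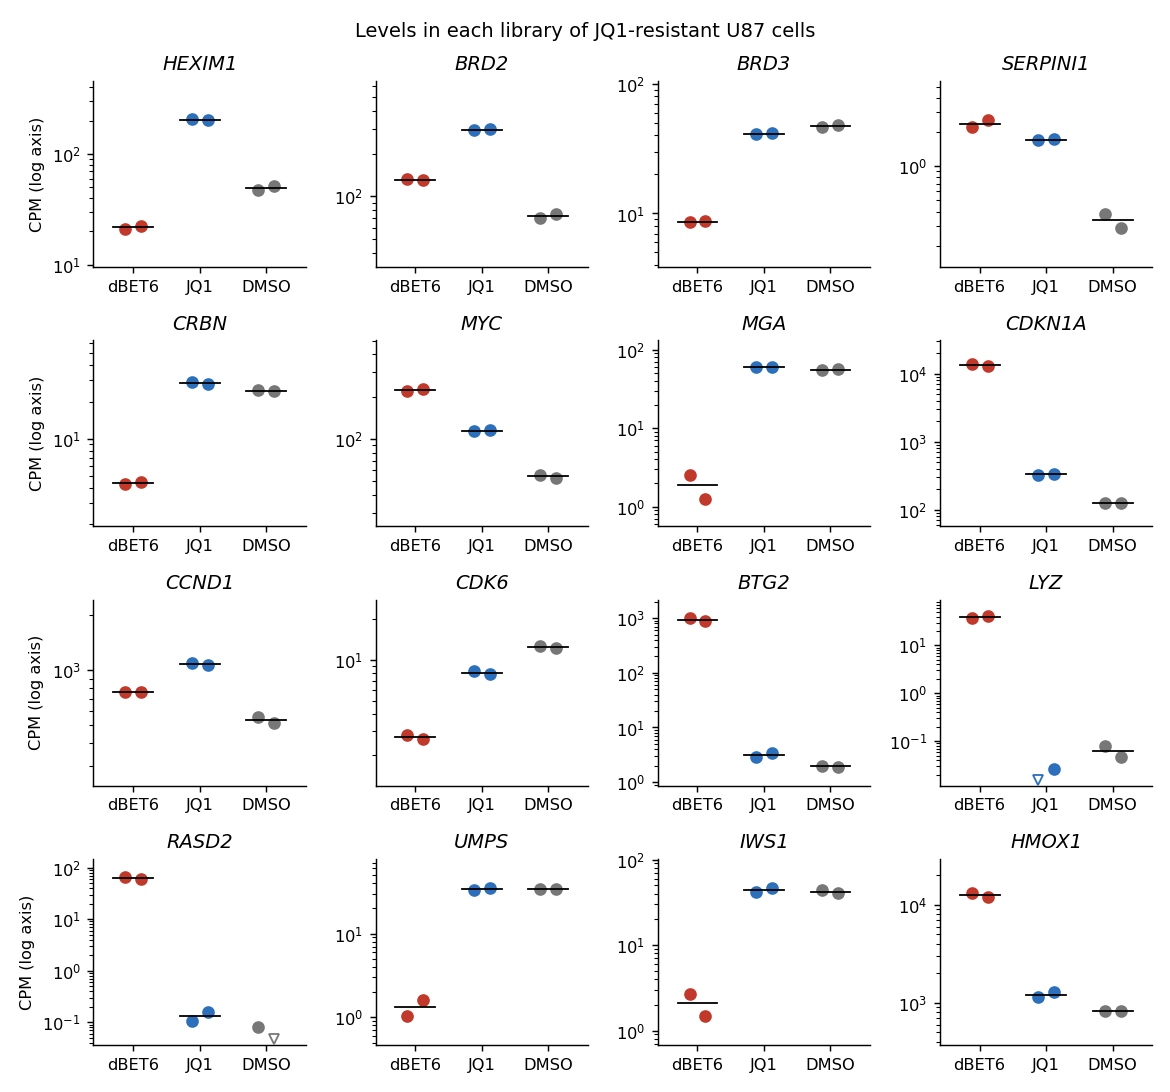
Levels of 16 genes in each library of resistant cells on log axes in CPM, with dBET6 at the left, JQ1 in the middle and DMSO at the right of each panel. Points are libraries, bars the mean of 2, and open triangles at the lower edge libraries with 0 counts. The dBET6 and JQ1 libraries do not overlap in any of the panels, which for genes named by size was a condition of their choice.

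MYC (ENSG00000136997), the growth regulator whose fall with JQ1 is a standard readout in blood cancers, stood above DMSO with both compounds on the TMM scale. It had 221 and 228 CPM in the dBET6 libraries, against 115 and 115 CPM in the JQ1 libraries and 55.7 and 52.9 CPM in DMSO, an order with no overlap. The fold change of dBET6 over JQ1 was 0.96 ± 0.09 (adjusted p = 5.29e-11) but reversed to -0.52 on the mitochondrial scale, and it was 0.08 with total counts (adjusted p = 0.304). MGA (ENSG00000174197), a partner of MAX that represses MYC target genes, had the lowest fold change of the genes named by size. It had 2.54 and 1.25 CPM in the dBET6 libraries, against 59.4 and 59.5 CPM in the JQ1 libraries and 55.0 and 55.9 CPM in DMSO, so that it was near its DMSO level with JQ1 and far below it with dBET6 (-4.99 ± 0.16, adjusted p = 7.50e-20). MLX, another member of that network, had 12 and 12.5 CPM with dBET6, against 41.9 and 42.9 CPM with JQ1 (-1.79 ± 0.10). Over the MYC network list 6 of 11 fell and 4 rose (median -0.52).

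Most listed cell cycle genes were lower with dBET6, as were 72.2% of protein-coding genes in the middle of 5 bins by level. The best known brake of the cycle was far higher. CDKN1A (ENSG00000124762), which encodes the CDK inhibitor p21, had 14122 and 13131 CPM in the dBET6 libraries, against 324 and 339.7 CPM in the JQ1 libraries and 125 and 126 CPM in DMSO. The fold change was 5.36 ± 0.11 (adjusted p = 8.19e-24). CDK6, a G1 kinase, had 2.82 and 2.62 CPM in the dBET6 libraries, against 8.27 and 7.86 CPM in the JQ1 libraries (-1.57 ± 0.16). CCND1, which encodes its partner cyclin D1, had 756 and 760.5 CPM in the dBET6 libraries, against 1098 and 1069 CPM in the JQ1 libraries (-0.51 ± 0.08). On the TMM scale both compounds lay above the 556 and 518 CPM of DMSO, which was not tested on another scale. E2F1, the factor that this kinase releases, had 67.4 and 65.9 CPM in the dBET6 libraries, against 92.4 and 89.4 CPM in the JQ1 libraries (-0.45 ± 0.09). No groups overlapped in these genes. The call of E2F1 was lost with genes of at least 10 CPM only (-0.08), and those of CCND1 and CDK6 in the deposited FPKM values (-0.19 and -0.42, adjusted p = 0.205 and 0.0746 with limma). Against a fold of 1.5, neither CCND1 nor E2F1 was called. In the list of G1 cyclins and CDK inhibitors 8 of 13 fell and 3 rose (median -0.77), with CCNE1 (cyclin E1) at -2.49 ± 0.16 and RBL1 (the RB relative p107) at -2.36 ± 0.14.

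Replication, mitosis and repair followed the same direction. The share lower was 66.0% for replication, below that 72.2%, and 82.2% and 82.4% for mitosis and repair. Of E2F targets and replication genes 31 of 47 fell and 10 rose (median -0.76). DTL, a substrate receptor that limits replication licensing, had 2.06 and 3.36 CPM with dBET6, against 30.9 and 32.5 CPM with JQ1 (-3.53 ± 0.15). CDC6, which loads the replicative helicase, was at -2.56 ± 0.11, and RFC4, of the clamp loader, at -3.31 ± 0.15. Of G2/M and mitosis genes 37 of 45 fell and 2 rose (median -1.29). AURKA, a spindle kinase, had 2.75 and 2.80 CPM in the dBET6 libraries, against 22.5 and 23.3 CPM in the JQ1 libraries and 71.0 and 70.5 CPM in DMSO (-3.04 ± 0.14), so that both compounds stood below DMSO and dBET6 further. BUB1B, of the spindle checkpoint, was at -2.89 ± 0.13 and ASPM, of the spindle poles, at -2.75 ± 0.12.

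Among the lists, homologous recombination and Fanconi repair had the lowest median. In it 28 of 34 members fell and 3 rose (median -1.92). BARD1, the obligate partner of BRCA1, had 0.756 and 0.685 CPM in the dBET6 libraries, against 14.6 and 13.8 CPM in the JQ1 libraries and 19.1 and 19.5 CPM in DMSO (-4.30 ± 0.21, adjusted p = 2.26e-16). EXO1, the nuclease that resects DNA ends, was at -3.08 ± 0.16, and PALB2, which joins BRCA1 to BRCA2, at -2.81 ± 0.15.

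Targets of p53 rose more often than they fell, in a share close to the 65.3% of the most abundant protein-coding genes. In that list 20 of 30 members rose and 6 fell (median 1.34, -0.15 on the mitochondrial scale). BTG2 (ENSG00000159388), an antiproliferative gene of p53 and of the early response, had 982 and 865 CPM in the dBET6 libraries, against 2.85 and 3.39 CPM in the JQ1 libraries and 2.0 and 1.91 CPM in DMSO (8.21 ± 0.13, adjusted p = 2.59e-26). PPM1D, the phosphatase that resets the p53 response, had 167 and 171 CPM with dBET6, against 9.91 and 9.96 CPM with JQ1 (4.09 ± 0.10), and GADD45A, a growth arrest gene, 912 and 963 CPM with dBET6, against 67.6 and 66.0 CPM with JQ1 (3.81 ± 0.09).

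Of the BCL2 family and caspases 13 of 34 rose and 16 fell (median -0.10, 0.10 with median-of-ratios factors), close to the shares of all genes. Caspases were among the members of lowest p. CASP2, which responds to mitotic and DNA stress, had 3.02 and 2.93 CPM with dBET6, against 41.5 and 41.2 CPM with JQ1 (-3.80 ± 0.13). CASP9, of the apoptosome, had 2.40 and 2.06 CPM with dBET6, against 13.9 and 15.1 CPM with JQ1 (-2.70 ± 0.16). FADD, the adaptor of death receptors, was at -2.20 ± 0.10. BCL2L1, which encodes the protective BCL-XL and was rebuilt from only 0.74 of its deposited level, had 17.4 and 13.9 CPM in the dBET6 libraries, against 56.7 and 58.9 CPM in the JQ1 libraries (-1.89 ± 0.12). Of the members that rose, BBC3 and HRK, both of the BH3-only kind, are given as examples chosen after their values were seen. BBC3, which encodes PUMA, had 125 and 96.1 CPM in the dBET6 libraries, against 10.2 and 10.4 CPM in the JQ1 libraries (3.42 ± 0.12). HRK had 129 and 108 CPM with dBET6, against 21.9 and 22.4 CPM with JQ1 (2.42 ± 0.10).

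Most early response genes rose, in a share close to the 65.3% of the most abundant protein-coding genes. In the AP-1 and early response list 22 of 33 rose and 9 fell (median 1.42, -0.06 on the mitochondrial scale). ARC, an activity-induced gene, had 2089 and 1849 CPM in the dBET6 libraries, against 22.0 and 24.1 CPM in the JQ1 libraries and 12.1 and 12.8 CPM in DMSO (6.42 ± 0.13). JUNB, an AP-1 subunit, was at 3.34 ± 0.10, and CYR61, a matricellular YAP and AP-1 target, at 3.43 ± 0.09. Feedback genes of the ERK cascade were divided, with 8 of 21 higher and 9 lower (median -0.03, 0.16 with median-of-ratios factors). DUSP6, the phosphatase that ERK induces against itself, had 7.21 and 7.42 CPM in the dBET6 libraries, against 101 and 104 CPM in the JQ1 libraries and 194 and 195 CPM in DMSO (-3.81 ± 0.11). DUSP4 was at -2.28 ± 0.11 and ETV1, an ERK-responsive factor, at -1.91 ± 0.10. YAP and TEAD genes showed 6 of 17 higher and 7 lower (median -0.13, 0.07 with median-of-ratios factors), among them AJUBA, a regulator of YAP, at -2.33 ± 0.16.

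Most of the 12 genes with the highest fold changes, among protein-coding genes of at least 10 CPM whose groups did not overlap, were under 1 CPM with JQ1 and with DMSO. LYZ (ENSG00000090382), which encodes lysozyme of myeloid and secretory cells, had 36.8 and 40.7 CPM in the dBET6 libraries, against 0 and 0.0263 CPM in the JQ1 libraries and 0.0801 and 0.0478 CPM in DMSO. Its JQ1 value rests on 1 count in both libraries together, so the ratio is 2919 and its 95% interval, from counting error alone, runs over 523 to 115391. RASD2, a small G protein of the striatum, had 66.4 and 60.9 CPM in the dBET6 libraries, against 0.108 and 0.158 CPM in the JQ1 libraries (8.86 ± 0.23). TMEM119, a gene known from microglia and osteoblasts, had 64.7 and 60.8 CPM in the dBET6 libraries, against 0.135 and 0.131 CPM in the JQ1 libraries and 0.600 and 0.837 CPM in DMSO, lower with JQ1 than with DMSO (-2.38 ± 0.35) and higher with dBET6 (8.84 ± 0.19 against JQ1). SEMA4A, a semaphorin, had 74.4 and 70.0 CPM with dBET6, against 0.188 and 0.158 CPM with JQ1 (8.67 ± 0.19), and CKM, muscle creatine kinase, 38.3 and 29.8 CPM with dBET6, against 0.108 and 0.0788 CPM with JQ1 (8.45 ± 0.31).

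Others of these genes are known from muscle and epithelium. XIRP1, an actin-binding gene of striated muscle, had 43.8 and 43.1 CPM with dBET6, against 0.215 and 0.0788 CPM with JQ1 (8.18 ± 0.28), and ANKRD1, a cardiac ankyrin repeat gene and YAP target, 148 and 165 CPM with dBET6, against 0.915 and 0.683 CPM with JQ1 (7.61 ± 0.14). CLDN6, a claudin of embryonic epithelium, had 51.7 and 49.8 CPM with dBET6, against 0.269 and 0.210 CPM with JQ1 (7.70 ± 0.21). PKNOX2, a homeobox factor, was at 7.72 ± 0.20 and PLEKHA6, a junction protein gene, at 8.21 ± 0.25. SYT16, with 25.4 and 21.5 CPM with dBET6, against 0.0269 and 0.0263 CPM with JQ1 from 2 counts in all with JQ1, was rebuilt at 2.98 times its deposited level. Its 714 counts with dBET6 against 2 with JQ1 gave a ratio of 877 after scaling (95% counting interval 242 to 7257).

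Of protein-coding genes of at least 10 CPM whose groups did not overlap, the 12 with the lowest fold changes, MGA and LEO1 among them, include genes that every cell uses. UMPS (ENSG00000114491), the enzyme that completes uridine monophosphate, had 1.03 and 1.62 CPM in the dBET6 libraries, against 32.7 and 35.2 CPM in the JQ1 libraries and 34.3 and 34.1 CPM in DMSO (-4.66 ± 0.24, adjusted p = 4.31e-11). IWS1, a partner of the elongation factor SPT6, had 2.68 and 1.5 CPM with dBET6, against 42.2 and 46.1 CPM with JQ1 (-4.42 ± 0.16). OSBPL11, a lipid-binding protein of the endosome and Golgi, had 1.58 and 1.43 CPM with dBET6, against 30.0 and 30.2 CPM with JQ1 (-4.32 ± 0.17). With JQ1, UMPS and IWS1 stood at their DMSO levels (log2 -0.01 ± 0.14 and 0.06 ± 0.10). The rest were NBEA, VANGL1, ASXL2, RIF1, KIF20B, UBAP1 and NDP, at -4.75, -4.25, -4.26, -4.23, -4.15, -4.12 and -4.23. VANGL1 sets planar polarity, ASXL2 is a Polycomb-related cofactor, RIF1 times replication, KIF20B acts in cytokinesis, UBAP1 in endosomal sorting and NDP encodes the Wnt-receptor ligand norrin. NBEA, at 1.37 and 0.997 CPM in the dBET6 libraries, against 32.8 and 30.9 CPM in the JQ1 libraries, had the widest error (-4.75 ± 0.53), and UBAP1 and ASXL2 were rebuilt from 0.82 and 0.78 of their deposited levels.

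Promoters of 3 genes of each end, the first in order of fold change with 1 start in the RefSeq table used, are shown as the 250 bases before the start on GRCh38.p14, to set the most raised and the most lowered genes side by side. Capitals mark matches, on either strand, of the 4 motifs searched: TATAAA (the TATA box), CACGTG (the E-box of MYC and MAX), TGACTCA (the AP-1 site) and GGGCGG (the GC box of SP factors). Overlapping matches of a motif were all counted. RASD2 lies at chr22:35532556-35532805, plus strand, CKM at chr19:45322876-45323125, minus strand, BTG2 at chr1:203305269-203305518, plus strand, UMPS at chr3:124730202-124730451, plus strand, IWS1 at chr2:127526490-127526739, minus strand and OSBPL11 at chr3:125595498-125595747, minus strand.
RASD2: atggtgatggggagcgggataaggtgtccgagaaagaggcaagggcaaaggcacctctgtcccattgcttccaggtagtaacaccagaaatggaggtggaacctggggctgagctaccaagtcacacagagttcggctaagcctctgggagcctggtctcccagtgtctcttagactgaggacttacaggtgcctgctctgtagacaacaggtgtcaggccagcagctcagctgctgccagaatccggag
CKM: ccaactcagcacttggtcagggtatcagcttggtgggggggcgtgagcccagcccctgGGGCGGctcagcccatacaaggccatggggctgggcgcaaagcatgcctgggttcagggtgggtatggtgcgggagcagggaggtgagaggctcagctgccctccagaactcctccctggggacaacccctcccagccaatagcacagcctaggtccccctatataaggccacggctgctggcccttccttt
BTG2: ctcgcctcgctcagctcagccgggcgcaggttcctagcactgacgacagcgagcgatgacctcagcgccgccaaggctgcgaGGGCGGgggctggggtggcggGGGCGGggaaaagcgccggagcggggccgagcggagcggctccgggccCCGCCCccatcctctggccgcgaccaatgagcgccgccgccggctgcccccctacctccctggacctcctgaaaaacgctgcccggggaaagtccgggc
UMPS: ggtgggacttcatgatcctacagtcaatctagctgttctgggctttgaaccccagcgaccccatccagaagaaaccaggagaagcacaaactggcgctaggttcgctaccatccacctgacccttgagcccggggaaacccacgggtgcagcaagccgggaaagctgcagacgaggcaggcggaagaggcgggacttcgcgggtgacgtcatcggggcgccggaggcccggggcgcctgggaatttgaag
IWS1: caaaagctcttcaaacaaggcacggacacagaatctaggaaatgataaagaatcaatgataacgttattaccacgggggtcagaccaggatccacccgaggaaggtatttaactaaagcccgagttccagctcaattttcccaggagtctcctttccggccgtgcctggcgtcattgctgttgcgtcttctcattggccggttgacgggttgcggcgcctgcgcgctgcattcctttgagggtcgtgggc
OSBPL11: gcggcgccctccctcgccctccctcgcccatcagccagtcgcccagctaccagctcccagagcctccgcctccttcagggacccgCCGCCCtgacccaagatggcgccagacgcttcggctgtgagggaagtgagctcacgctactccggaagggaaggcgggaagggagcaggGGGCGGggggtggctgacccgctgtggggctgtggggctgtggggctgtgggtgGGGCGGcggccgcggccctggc

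GGGCGG was found 3 times before BTG2, 3 times before OSBPL11 and once before CKM, and in none of the other 3 windows. It occurs in 64.9% of the 9247 promoters of that length with 1 start. TATAAA (6.24% of those promoters), CACGTG (8.65%) and TGACTCA (3.15%) were found in none of the 6 as exact letters. Variants of the motifs, such as the tatataag near the end of the CKM window, were not searched. CG dinucleotides numbered 4 before RASD2, 5 before CKM and 30 before BTG2, against 17, 16 and 20 before UMPS, IWS1 and OSBPL11. These matches describe the printed letters only.

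Several stress lists had more members higher with dBET6 than lower. Of oxidative stress genes 15 of 21 rose and 2 fell (median 1.32, -0.17 on the mitochondrial scale). HMOX1, the heme oxygenase, had 13319 and 12167 CPM in the dBET6 libraries, against 1146 and 1278 CPM in the JQ1 libraries and 825 and 821 CPM in DMSO (3.39 ± 0.11). SRXN1, which restores peroxiredoxins, was at 3.50 ± 0.09 and OSGIN1, an NRF2 target, at 3.85 ± 0.11. In the ATF4 and unfolded protein list 14 of 25 rose and 8 fell (median 0.68, -0.20 with total counts and -0.80 on the mitochondrial scale), with the stress factor ATF3 at 3.35 ± 0.10, the serine synthesis enzyme PHGDH at 2.77 ± 0.10 and the mTORC1 inhibitor SESN2 at 2.71 ± 0.10. Heat shock chaperones showed 11 of 22 higher and 7 lower (median 0.17, -0.71 with total counts and -1.31 on the mitochondrial scale), with BAG3 at 2.39 ± 0.09 and HSPB1, which JQ1 lowered against DMSO (-1.06 ± 0.09), at 2.18 ± 0.09. Autophagy and lysosome genes showed 22 of 37 higher and 10 lower (median 0.36, -0.53 with total counts and -1.13 on the mitochondrial scale). MAP1LC3B, which marks autophagosomes, had 654 and 696 CPM with dBET6, against 158 and 156 CPM with JQ1 (2.11 ± 0.09), and CTSD, cathepsin D, was at 1.93 ± 0.10.

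Metabolic lists pointed the same way, with cholesterol and fatty acid synthesis close to the 65.3% of the most abundant protein-coding genes. Of genes of cholesterol and fatty acid synthesis 20 of 30 rose and 9 fell (median 0.69, -0.19 with total counts and -0.79 on the mitochondrial scale). HMGCS1, an early enzyme of the pathway, was at 1.66 ± 0.10 and no longer passed on the mitochondrial scale (0.17, adjusted p = 0.464). Of hypoxia and glycolysis genes 20 of 29 rose and 3 fell (median 1.13, -0.36 on the mitochondrial scale), with the glucose transporter gene SLC2A3 at 3.01 ± 0.09 and PFKFB3, which stimulates glycolysis and was rebuilt from 0.93 of its deposited level, at 1.96 ± 0.09. Of nuclear genes of the respiratory chain 33 of 44 rose and 7 fell (median 0.93, -0.56 on the mitochondrial scale), among them COX8A (2.33 ± 0.10) and NDUFB8 (2.08 ± 0.09). All 13 mitochondrially encoded mRNAs rose (median 1.49). With total counts 9 rose (median 0.61), and on the TPM scale 0 rose and 2 fell (median -0.04 with either pseudocount).

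**Figure D3:**
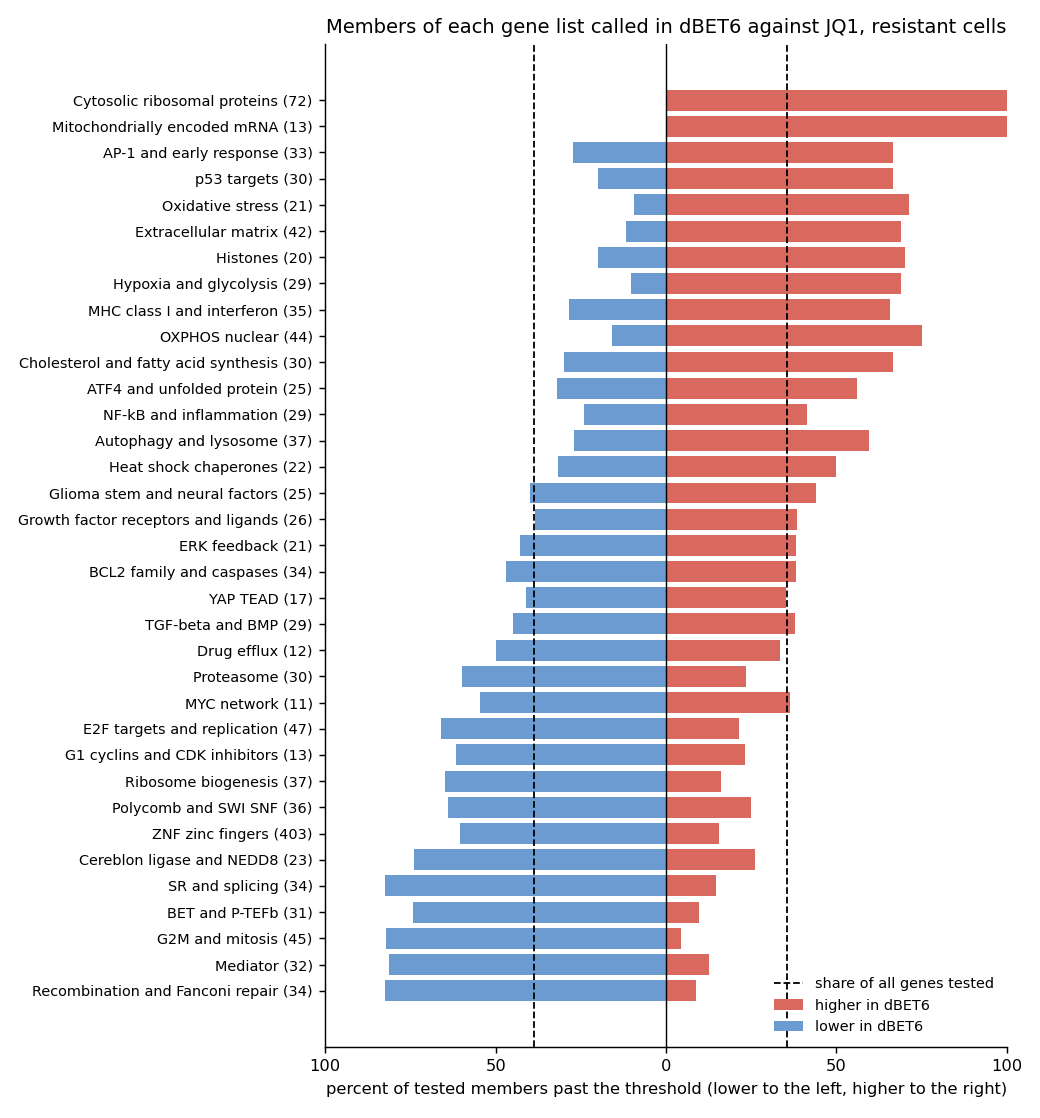
For each gene list, the percent of tested members (number in brackets) that were higher with dBET6 than with JQ1 in resistant cells, to the right, and lower, to the left. Dashed lines give the shares of all genes tested, 35.4% higher and 38.8% lower. Cytosolic ribosomal proteins (72 of 72 higher) stand at the top and recombination and Fanconi repair (28 of 34 lower) at the bottom, ordered by the list's median.

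The genes that build ribosomes parted from the genes that assemble them. All 72 of 72 tested cytosolic ribosomal protein genes rose (median 1.59; 0.71 with total counts and 0.10 on the mitochondrial scale, where 13 rose and 4 fell). RPS19, a protein of the small subunit, had 5441 and 5709 CPM in the dBET6 libraries, against 1001 and 1158 CPM in the JQ1 libraries (2.37 ± 0.10). Ribosome biogenesis factors fell in 24 of 37 cases and rose in 6 (median -0.79). RRN3, which activates RNA polymerase I, had 6.60 and 5.86 CPM in the dBET6 libraries, against 53.4 and 52.7 CPM in the JQ1 libraries (-3.09 ± 0.12), and DKC1, the pseudouridine synthase of snoRNPs, was at -2.66 ± 0.10.

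Splicing and chromatin regulators were mostly lower, as were protein-coding genes in the middle of 5 bins by level (72.2%). Of SR and other splicing genes 28 of 34 fell and 5 rose (median -1.09). RBM5, a splicing regulator, had 9.14 and 7.73 CPM in the dBET6 libraries, against 105 and 93.6 CPM in the JQ1 libraries and 62.6 and 66.1 CPM in DMSO (-3.56 ± 0.12), and SRSF2 was at -2.32 ± 0.09. Of Polycomb and SWI/SNF genes 23 of 36 fell and 9 rose (median -0.94), among them SMARCB1, a SWI/SNF core subunit (-3.09 ± 0.11), and SUZ12, a PRC2 core subunit (-2.46 ± 0.11). The large family of ZNF zinc finger genes had 244 of 403 members lower and 63 higher (median -1.05), with ZNF146 at -3.18 ± 0.11 and ZNF445 at -2.94 ± 0.11. Histone genes went the other way, with 14 of 20 higher and 4 lower (median 1.24, -0.25 on the mitochondrial scale). HIST2H2BE had 978 and 922 CPM in the dBET6 libraries, against 112 and 114 CPM in the JQ1 libraries and 4.22 and 3.75 CPM in DMSO (3.07 ± 0.09), with no overlap between the 3 conditions. H1F0, the replacement linker histone, was at 3.01 ± 0.10 and HIST3H2A at 3.12 ± 0.10. Many histone genes are near-identical, so reads can be divided between copies, and those used in replication lack polyA tails.

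Matrix, inflammatory and MHC class I lists had more members higher than lower. Their shares higher (69.0%, 41.4% and 65.7%) stand beside 65.3% of the most abundant protein-coding genes. Of extracellular matrix genes 29 of 42 rose and 5 fell (median 1.27, -0.11 on the mitochondrial scale). Over DMSO the median of this list was 0.34 with dBET6 and -0.59 with JQ1. COL6A1, a collagen VI chain, was at 2.55 ± 0.10 and TIMP2, a protease inhibitor, at 2.17 ± 0.09, both below DMSO with JQ1 (-0.73 ± 0.10 and -0.62 ± 0.08) and above it with dBET6 (1.81 ± 0.10 and 1.55 ± 0.09). In the NF-kB and inflammation list 12 of 29 rose and 7 fell (median 0.55, -0.26 with total counts and -0.86 on the mitochondrial scale). Its median over DMSO was -0.16 with dBET6 and -0.75 with JQ1, beside -0.29 and -0.02 for all protein-coding genes tested. Relative to those, the list was lower with JQ1 but not with dBET6. IL8, a neutrophil chemokine, had 12.4 and 13.8 CPM in the dBET6 libraries, against 0.781 and 0.552 CPM in the JQ1 libraries and 2.08 and 1.46 CPM in DMSO (4.29 ± 0.20). NFKBIZ, ICAM1 and IL11 were at 1.95 ± 0.11, 2.03 ± 0.12 and 2.87 ± 0.22. Of MHC class I and interferon genes 23 of 35 rose and 10 fell (median 0.95, -0.55 on the mitochondrial scale). Over DMSO their median was 0.26 with dBET6 and -0.15 with JQ1. TRIM22, an interferon-induced antiviral gene, had 21.8 and 20.9 CPM in the dBET6 libraries, against 1.80 and 2.58 CPM in the JQ1 libraries and 23.2 and 22.6 CPM in DMSO (3.28 ± 0.15), so that JQ1 stood far below DMSO and dBET6 close to it (-0.10 ± 0.12). OAS3 was at 2.97 ± 0.10, and HLA-C and HLA-B, which share sequence, at 2.10 ± 0.10 and 2.03 ± 0.10.

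Receptors and signals of growth were divided. Of growth factor receptors and ligands 10 of 26 rose and 10 fell (median 0.04, -0.83 with total counts and -1.42 on the mitochondrial scale). MET, the HGF receptor, had 44.5 and 52.3 CPM in the dBET6 libraries, against 137 and 136 CPM in the JQ1 libraries (-1.49 ± 0.10), INSR, the insulin receptor, was at -2.32 ± 0.12, and GAS6, the ligand of AXL, rebuilt from 0.87 of its deposited level, at 2.06 ± 0.10. TGF-beta and BMP genes showed 11 of 29 higher and 13 lower (median -0.19, 0.01 with median-of-ratios factors). GDF5, a BMP-like ligand, had 1.79 and 2.49 CPM in the dBET6 libraries, against 25.9 and 29.2 CPM in the JQ1 libraries and 87.3 and 79.4 CPM in DMSO (-3.67 ± 0.15). The receptor TGFBR2 was at -2.78 ± 0.11 and the shared mediator SMAD4 at -2.33 ± 0.11. Glioma stem and neural factors showed 11 of 25 higher and 10 lower (median 0.05, -0.83 with total counts and -1.43 on the mitochondrial scale). NOTCH3 had 17.2 and 15.3 CPM with dBET6, against 1.02 and 0.631 CPM with JQ1 (4.29 ± 0.18), POU3F2, a neural factor, 4.74 and 4.80 CPM with dBET6, against 0.108 and 0.184 CPM with JQ1 (4.99 ± 0.40), and SNAI1, a repressor of epithelial genes, 2.75 and 3.55 CPM with dBET6, against 0.0808 and 0.131 CPM with JQ1 (4.84 ± 0.42). NES, which encodes nestin, was at 1.99 ± 0.10. Of drug efflux genes 4 of 12 rose and 6 fell (median -0.20; 0.18 in the deposited FPKM values, 0.16 among genes of at least 10 CPM and 0.06 with length-scaled TPM counts), close to the shares of all genes. ABCC10, a transporter of that family, had 5.43 and 4.99 CPM in the dBET6 libraries, against 43.9 and 46.9 CPM in the JQ1 libraries and 20.1 and 20.7 CPM in DMSO (-3.13 ± 0.13), so that JQ1 stood above DMSO and dBET6 below.

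Median fold changes were lower in bins of longer genes. In 5 bins of equal size (2894 protein-coding genes each) by the span from start to end in GENCODE release 29, the median log2 fold change was 0.42, -0.09, -0.26, -0.59 and -0.61 from the shortest (median 5.47 kb) to the longest (171 kb). In the shortest bin 47.0% were higher and 32.2% lower, and in the longest 25.7% and 52.7%. With total counts all 5 medians were negative, at -0.45, -0.97, -1.14, -1.47 and -1.49. JQ1 over DMSO had medians between -0.05 and 0 in the same bins. Parental cells gave medians of dBET6 over JQ1 from 0.38 to -0.66 in these bins. Effective transcript length, from the deposited files, gave 0.73 in the shortest of 5 bins of all genes tested and -0.38 in the longest.

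The medians differed by level as well, without a steady direction. By mean CPM over the 12 libraries, the medians of the 5 bins of protein-coding genes were 1.19, -0.50, -1.16, -0.84 and 0.40. With total counts they were 0.33, -1.38, -2.05, -1.72 and -0.49, so that the most abundant bin changed sign. The bin around 15.8 CPM had the lowest median, with 72.2% lower and 17.7% higher, and the most abundant bin had 34.6% lower and 55.5% higher. With 3 bins by level and 3 by span, the most abundant genes had a median of 0.49 where the span was shortest and -0.68 where it was longest. Among genes named by size, LYZ, BTG2, CLDN6 and ANKRD1 span 5.89, 4.11, 5.36 and 9.18 kb, and PKNOX2 and PLEKHA6 269 and 159 kb. MGA, NBEA and ASXL2 among the lowest span 152, 731 and 145 kb, and UMPS 18.9 kb. The fold change of a gene in bins of its own level is partly built on the same libraries, so these medians are descriptions.

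**Figure D4:**
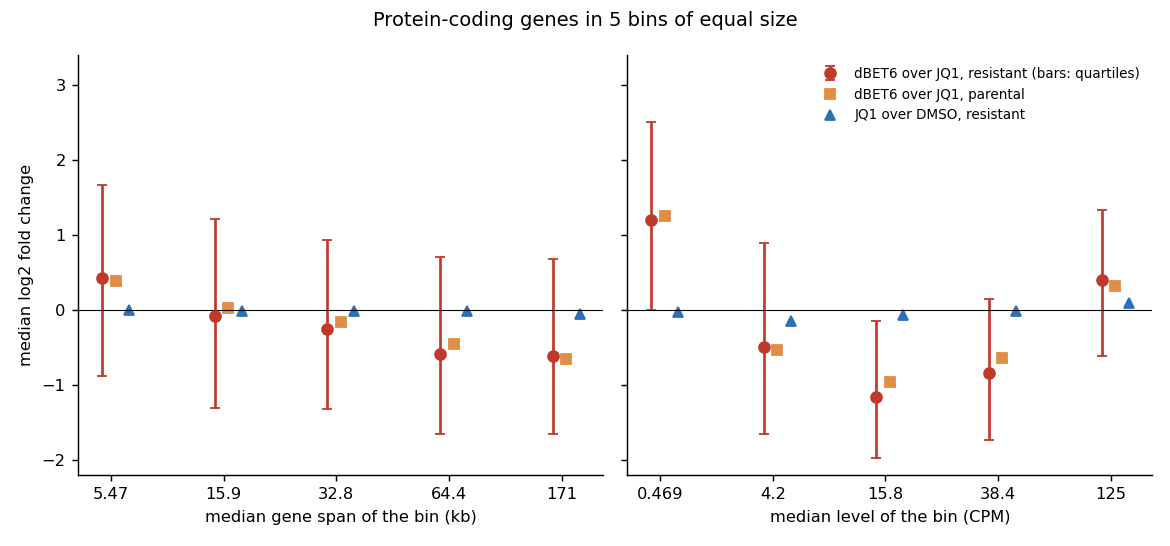
Median log2 fold change of protein-coding genes in 5 bins of equal size, by gene span in kb (left) and by mean level in CPM (right), with the bin's median on the x axis. Circles are dBET6 over JQ1 in resistant cells with quartile bars, squares the same in parental cells and triangles JQ1 over DMSO in resistant cells. The circles lie at 0.42 in the shortest and -0.61 in the longest bin of span, and are lowest by level, at -1.16, in the middle bin of level.

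Classes of RNA differed too. Protein-coding genes had 34.6% higher and 46.0% lower of 14470 tested. Long intergenic RNAs had 41.8% higher and 13.6% lower of 1401, and antisense RNAs 36.1% and 15.3% of 1610. The counting is not stated to use strand, so an antisense RNA and its partner cannot be told apart. Small nuclear RNAs, which mostly lack polyA tails, were higher in 30 of 35 cases and lower in 3, and small nucleolar RNAs higher in 7 and lower in 15 of 34.

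The libraries carried the markers of their label. All 10 markers of mesenchymal glioma cells, such as VIM and CD44, were above 1 TPM in each group, with a summed level of 12913 to 13297 TPM with dBET6 and 12279 to 12988 TPM with JQ1. Glial markers summed to 4.95 to 5.52 TPM with dBET6 and 13.1 to 13.6 TPM with JQ1, and OLIG1 was at 0. Neuronal markers, nearly all of it TUBB3, summed to 616 to 649 TPM with dBET6 and 1672 to 1983 TPM with JQ1, with STMN2 at 0. Myeloid markers, led by CD68, summed to 472 to 478 TPM with dBET6 and 314 to 339 TPM with JQ1. Of them 6 of 6 tested were called higher with dBET6, beside 35.4% of all genes, FCGR1A among them, which has near-identical copies. The defining myeloid member PTPRC was at most 0.0308 TPM with dBET6 and AIF1 at 0. Mesenchymal markers were called higher in 10 of 10 cases, fibroblast in 4 of 8 and epithelial in 3 of 5, with 0 lower. Glial markers had 3 higher and 2 lower of 6, neuronal 2 and 4 of 8. These calls are on the TMM scale. VIM, called higher, had 4824 and 4636 TPM with dBET6, against 5417 and 5738 TPM with JQ1. Epithelial markers summed to 16.4 to 17.7 TPM with dBET6 and 1.35 to 2.19 TPM with JQ1, most of it CLDN6, with KRT5 and KRT18 at 0 with dBET6. Fibroblast markers summed to 72.0 to 82.7 TPM with dBET6 and 18.6 to 26.9 TPM with JQ1, mostly ACTA2, with POSTN and LUM at 0 in both. Endothelial and lymphoid markers summed to at most 4.04 TPM in any library of either compound.

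The same contrast in parental cells, which uses other libraries, shows which of these differences were called in both lines. There 6915 genes (36.2%) were higher and 7324 (38.4%) lower, together 74.6%. Higher in both lines were 5528 genes, 81.7% of those higher in resistant and 79.9% of those higher in parental cells, and lower in both 6303 (85.2% and 86.1%). In 204 genes the call was higher in resistant and lower in parental cells, and in 167 the reverse. Directions in both lines, here and below, are on the TMM scale. The median gene of the parental contrast was at 0.003 there, at -0.51 with total counts and at -1.45 on the mitochondrial scale. Opposite signs in the lines may therefore not hold on another scale. The difference between the lines itself was called for 30.1% of genes, 2791 more positive and 2960 more negative in resistant cells.

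Regulators of growth were among the genes on which the lines differed. MYC had a fold change of 0.96 ± 0.09 in resistant and -0.69 ± 0.09 in parental cells, a difference of 1.66 ± 0.12 (adjusted p = 1.38e-10). CCND1 and E2F1 moved the opposite way, at -0.51 ± 0.08 and -0.45 ± 0.09 in resistant, against 0.73 ± 0.08 and 0.96 ± 0.09 in parental cells (differences -1.24 ± 0.12 and -1.41 ± 0.13, adjusted p = 1.12e-08 and 6.14e-09). HEXIM1 and CRBN fell further in resistant cells, by differences of -0.61 ± 0.14 (adjusted p = 0.00181) and -0.97 ± 0.19 (adjusted p = 0.000277), and CDKN1A rose further, by 0.58 ± 0.13 (adjusted p = 0.000819). The call of CRBN was lost with counts scaled from TPM and length (-0.20), in the FPKM values (-0.12) and with TPM (-0.51 and -0.37). That of CDKN1A was lost with total counts (0.22) and on the mitochondrial scale (0.56), and that of HEXIM1 on the mitochondrial scale (-0.63) and in the FPKM values (-0.46). Against a fold of 1.5 these 3 differences were not called. BRD2 and BRD3 did not pass this test (-0.29 ± 0.12 and -0.35 ± 0.15, adjusted p = 0.0574 and 0.0843). With total counts both passed (-0.66 and -0.71, adjusted p = 2.50e-05 and 0.000386). BRD2 also passed with TPM (-0.61 and -0.59), with no filter beyond 1 count (-0.38, adjusted p = 0.0316) and without parental dBET6 replicate 2 (-0.36, adjusted p = 0.0210).

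Among the genes with the lowest p for the difference, CSF3, the granulocyte colony-stimulating factor, had 3.50 and 4.24 CPM with dBET6 and 26.9 and 26.7 CPM with JQ1 in resistant cells. In parental cells it had 52.6 and 50.6 CPM with dBET6 and 15.7 and 12.9 CPM with JQ1, the opposite order (difference -4.63 ± 0.19, adjusted p = 7.67e-15). CDC27, of the anaphase-promoting complex, and EYA3, a phosphatase and coactivator, fell in resistant cells (-2.29 ± 0.10 and -1.79 ± 0.11) and rose in parental cells (0.65 ± 0.09 and 0.77 ± 0.09), with differences of -2.94 ± 0.13 and -2.56 ± 0.14. METTL7B, a thiol methyltransferase, and RDH5, a retinol dehydrogenase, rose in both lines and further in resistant cells (differences 2.42 ± 0.13 and 2.26 ± 0.12). SAMD11 rose in resistant cells (4.26 ± 0.19), with 0.22 ± 0.13 in parental cells (difference 4.04 ± 0.24). Each of these differences between the lines passed the test. SNAI2, which encodes the mesenchymal factor SLUG, fell in parental cells (-2.66 ± 0.10), with -0.13 ± 0.09 in resistant cells (adjusted p = 0.218) and a difference of 2.54 ± 0.14 (adjusted p = 3.68e-13).

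The lists differed between the lines to unequal extents. Of cytosolic ribosomal protein genes 67 of 72 were called more positive in resistant cells and 0 more negative (median fold change 0.95 in parental cells), beside 14.6% and 15.5% of all genes. Of hypoxia and glycolysis genes 21 of 29 were more positive and 0 more negative (parental median 0.36), and of cholesterol and fatty acid genes 15 and 1 of 30 (median -0.18 in parental cells). Of E2F targets and replication genes 4 were more positive and 30 of 47 more negative, the parental median being 0.02 with 19 higher and 20 lower. The scale of each library bears on these differences, whose median over all genes was -0.06 and moved to -0.42 with total counts.

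**Figure D5:**
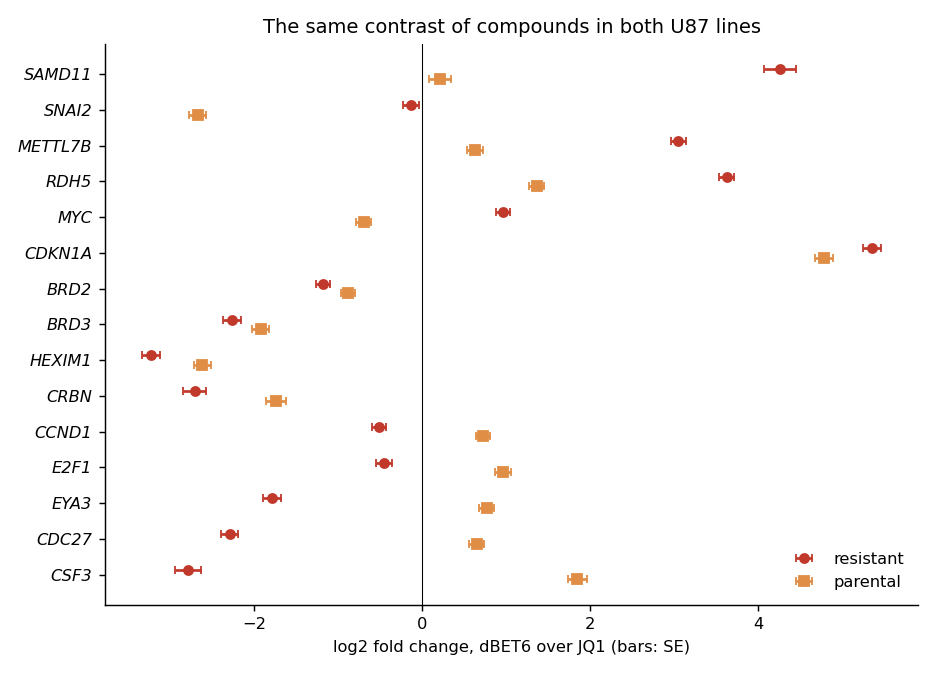
Log2 fold changes of dBET6 over JQ1 with SE bars for 15 genes in resistant cells (circles) and parental cells (squares), ordered by the difference between the lines. SAMD11 differs most in the positive direction (4.04) and CSF3 most in the negative (-4.63). On the TMM scale shown, MYC, CCND1, E2F1, CDC27, EYA3 and CSF3 lie on opposite sides of zero in the lines. On the mitochondrial scale the median gene of the parental contrast lies at -1.45, so these signs depend on the scale.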

How the data were processed

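PolyA RNA of 12 libraries was sequenced, 2 for each line and treatment. The authors deposited estimated counts for each transcript, raw output of kallisto per the file headers. Beside them the authors deposited TPM, the relative abundance that kallisto computes, per the file headers. A gene table of FPKM was also deposited. The submitters' processing notes name kallisto, DESeq2 and build hg19, without versions or the handling of strand.

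Of 196354 transcripts per file, 92.1% were paired with genes through GENCODE release 29, and they took 94.7% to 96.2% of a library's counts. Of 10511 genes checked, 82.0% had a summed TPM within 1% of the deposited FPKM after a factor per library was removed, and 5.85% lay below 0.8 of it. A gene rebuilt in part has a level less certain than its error.

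Per gene, the transcripts' estimated counts were added and rounded. The 19093 genes that filterByExpr kept entered edgeR's quasi-likelihood test with TMM factors (edgeR 4.0.16, R 4.3.3) in 1 fit of 12 libraries with 6 residual degrees of freedom and a common biological coefficient of variation of 7.88%. Adjusted p-values are Benjamini-Hochberg over all genes tested, with a threshold of 0.05. DESeq2 1.42.0 and limma 3.58.1 served as alternatives, with Python 3.11.15, pandas 2.3.3 and numpy 2.4.6 for the tables. For a gene with 1 to 3 counts in a group the ratio has a 95% counting interval, which covers counting error only. Replicates of each group differed by more than sampling noise.

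On simulated counts of 17873 genes with the resistant contrast, 64.2%, 95.5% and 98.5% of genes changed 1.5-fold, 2-fold and 4-fold were recovered and 6.01% of calls were false. For the difference between the lines these shares were 32.8%, 89.6% and 92.4%, with 13.9% of calls false. Only 67, 67 and 66 genes were changed, up and down in turn, at a fixed dispersion and without a shift in RNA make-up. In the data 74.2% of genes were called in the resistant contrast, so these shares do not give the error of those calls.

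The comparison, the 35 gene lists and the 8 marker lists were chosen with earlier results of these data known. Genes named are the 12 highest and 12 lowest fold changes among protein-coding genes of at least 10 CPM without overlap of the groups, the 8 of lowest p for the difference between the lines, 11 genes always named, and up to 4 members of lowest p per list in its prevailing direction, of which some are given. BBC3 and HRK were chosen after their values were seen. Some genes that the rule selects are not reported here.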

Additional observations from a re-analysis of the deposited data

Results flagged for a closer look

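For 13 of the 15 genes whose difference between the lines is printed, the test of dBET6 over JQ1 in resistant minus parental cells passed an adjusted p of 0.05 (edgeR). More positive in resistant cells were SAMD11 (4.04), SNAI2 (2.54), METTL7B (2.42), RDH5 (2.26), MYC (1.66) and CDKN1A (0.58), in log2. More negative were CSF3 (-4.63), CDC27 (-2.94), EYA3 (-2.56), E2F1 (-1.41), CCND1 (-1.24), CRBN (-0.97) and HEXIM1 (-0.61). Such differences were called for 30.1% of all genes tested.

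Transcripts that were not paired with a gene, and are in no comparison, took 4.81% of the counts on average in the dBET6 libraries of resistant cells, against 3.99% in the JQ1 libraries. The groups did not overlap.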

How the results depend on the processing

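Genes higher in resistant cells (6767) numbered 3713 with total counts, 2016 on the mitochondrial scale, 1162 and 1183 with limma on log2 TPM plus 0.1 and plus 1, and 3549 among genes of at least 10 CPM, a setting that tests fewer genes. Genes lower (7401) numbered 12112 on the mitochondrial scale and 4198 at 10 CPM. In parental cells, genes higher numbered 1910 on the mitochondrial scale, 1244 and 1290 with TPM and 3515 at 10 CPM, and genes lower 12713 and 4063 with the mitochondrial scale and 10 CPM. Differences between the lines more positive in resistant cells (2791) numbered 657 against a fold of 1.5, 847 and 930 with TPM, 916 on the mitochondrial scale and 1272 with total counts. Those more negative (2960) numbered 666 against a fold of 1.5, 1882 with length-scaled TPM, 1742 with FPKM, 1089 on the mitochondrial scale and 5951 with total counts. Of all calls in resistant cells 47.8% were higher, against 26.2% with total counts, 14.3% on the mitochondrial scale and 9.60% and 9.78% with TPM. The causes were not tested. The shortest of 5 bins of genes by transcript length exceeded the longest by 1.11 in median log2, by 1.15 with total counts and by 1.87 at 10 CPM.

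Single genes that changed sign in resistant cells were MYC (0.96), at -0.52 and -0.51 with TPM and -0.52 on the mitochondrial scale, and SERPINI1 (0.47), at -1.10 and -0.65 with TPM, -1.01 on the mitochondrial scale and -0.41 with total counts, and at 0.67 with DESeq2 and with median-of-ratios factors, both of which passed. SNAI2 (-0.13) was at 0.0702 with DESeq2, 0.0701 with median-of-ratios factors and 0.24 at 10 CPM, which passed. It passed as lower with total counts (-1.01), on the mitochondrial scale (-1.61), with TPM (-1.61 and -1.55) and with no filter (-0.34).

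Without each library in turn, genes higher and lower numbered 6101 to 6968 and 7104 to 7588 in resistant cells, 6298 to 7120 and 7032 to 7566 in parental cells, and 2273 to 2808 and 2309 to 2969 for the difference. Where a group kept 1 library, it was assumed to vary like the others. With the replicate number as a block (replicate block), 6708 were higher and 7393 lower in resistant cells. Deviations of same-numbered libraries correlated at -0.058 to 0.061, so the numbers did not pair them.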
